A study of Mus musculus with 16 samples.

Results

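The genes described here are the calcium pumps, pump regulators and calcium-binding proteins of the sarcoplasmic reticulum of muscle, namely Atp2a2, Atp2a1, Sln, Pln, Casq1, Casq2, Srl and Hrc. Every probe that the array's annotation names for one of these genes was taken, which gave 9 probes for 8 genes, out of 25697 probes and 16593 named genes on the array. The 8 genes were selected on the differences between diets in these same data, above all that of Atp2a2 on ursolic acid. Their differences between ursolic acid and control are therefore given as a description, with no p printed. Where it is said that such a difference passed a threshold or did not, that is part of the description and no test of the genes. The signals came from the quadriceps femoris of 16 aged male C57BL/6 mice that started their diets at 22 months of age and were harvested at 24 months. All mice ate the same standard chow for 2 months, either without an added compound (control, n = 5), with 0.27% (w/w) ursolic acid (n = 6) or with 0.05% (w/w) tomatidine (n = 5). Ursolic acid is a pentacyclic triterpenoid and tomatidine a steroidal alkaloid. Their doses differed, so no comparison of the compounds was made at a matched dose. No young mice were analysed here, so nothing below measures an effect of age.

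In muscle fibres the sarcoplasmic reticulum stores the calcium that triggers contraction. Calcium leaves the store through the ryanodine receptor, and relaxation follows when calcium ATPases of the SERCA family pump it back. Fast-twitch fibres mainly use SERCA1, encoded by Atp2a1, and slow-twitch fibres and the heart mainly use SERCA2, encoded by Atp2a2. The small membrane proteins sarcolipin (Sln) and phospholamban (Pln) restrain the pumps, and inside the store calcium is held by calsequestrin 1 (Casq1, the main form of fast-twitch fibres), calsequestrin 2 (Casq2, the form of heart and slow-twitch fibres), sarcalumenin (Srl) and the histidine-rich calcium-binding protein (Hrc).

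Each mouse gave 1 array with 1 colour, and its values were deposited as log2 signals, normalized beforehand by the authors. Array medians lay between 8.02 and 8.03 and array minima between 7.87 and 7.90, and 76.8% of probes had a mean under 8.5, a level treated here as dim. Markers of skeletal muscle were bright in all 3 diets, with a mean over 5 measured genes of 14.5 in each, while the defining cardiac genes Nppa, Nppb, Tnni3, Myl7 and Mybpc3 had means of 7.99, 7.98, 8.01, 7.97 and 7.98, close to the array minima. Of the 8 measured genes of the cardiac list 2 had a mean over 8.5, Actc1 (cardiac actin) at 10.52 and Myl4 (an atrial and embryonic myosin light chain) at 9.90, and Myh6 was at 8.18. Actc1 ran from 9.37 to 12.65 between mice and differed from control by 0.37 on ursolic acid and 0.90 on tomatidine, and its part in the results was not tested. Over 9 measured slow-fibre genes the mean signal per mouse fell into 2 ranges, with control mouse 1 at 9.43, control mouse 5 at 9.65 and tomatidine mouse 4 at 9.64, and the other 13 mice between 10.13 and 10.81. No mouse on ursolic acid lay in the lower range, and the Atp2a2 differences, the called correlations, the fibre list means and the counts of the wider calcium list are given with and without these 3 mice. In whole muscle, fewer fibres of a type and less RNA per fibre cannot be told apart.

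A promoter sequence was held for 5 of the 8 genes, and the pair of calsequestrins is shown because Casq1 and Casq2, the fast-type and slow-type forms of 1 buffer, gave r = -0.70 between mice, a value that was not called (adjusted p = 0.0579 by a permutation test described further on). The sequences are RefSeq's, build GRCm38.p6, and run 5′ to 3′ on each gene's own strand over the 250 bases before its start, at chr1:172219896-172220145 on the minus strand for Casq1 and chr3:102086165-102086414 on the plus strand for Casq2. Capitals mark E boxes, spelled CANNTG, the motif that myogenic factors such as MyoD bind, and sites of the MEF2 motif, which the muscle factor MEF2 binds.
Casq1: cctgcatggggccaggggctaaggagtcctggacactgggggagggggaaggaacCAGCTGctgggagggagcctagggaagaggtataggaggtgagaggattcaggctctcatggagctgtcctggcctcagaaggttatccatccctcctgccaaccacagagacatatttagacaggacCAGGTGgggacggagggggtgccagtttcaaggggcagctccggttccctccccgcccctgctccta
Casq2: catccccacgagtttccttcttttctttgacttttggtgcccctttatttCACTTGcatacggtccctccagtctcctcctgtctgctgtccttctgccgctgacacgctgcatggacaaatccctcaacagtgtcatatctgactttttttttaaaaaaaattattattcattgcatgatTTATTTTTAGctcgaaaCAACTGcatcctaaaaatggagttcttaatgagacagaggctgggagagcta
Both strands were searched for the E box, the MEF2 motif and the CArG box, and overlapping matches were counted separately. Casq1 and Casq2 each held 2 E boxes, and Atp2a1, Pln and Hrc each held 1, against at least 1 in 66.2% of all 32851 promoter windows of this length. Casq2 alone among the 5 genes held a match to the MEF2 motif, which 2.92% of all windows held. None of the 5 held a CArG box, which 1.47% of all windows held. A match describes the letters of the window only.

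Of the pumps, Atp2a2 gave higher signals on ursolic acid than on control diet, at both of its probes. At the brighter probe (ILMN_1245425) the control mice read 11.34, 12.37, 12.53, 12.11 and 11.52. The ursolic acid mice ran from 12.21 to 12.86 with a median of 12.53, and the tomatidine mice read 12.39, 12.45, 12.25, 11.69 and 12.33. The lowest ursolic acid mouse lay above 3 of the 5 control mice, 3 of the 6 ursolic acid mice lay above the highest control mouse, and none of the tomatidine mice did, so all 3 ranges overlapped. The diet means were 11.98 ± 0.52 (SD, n = 5) on control diet, 12.22 ± 0.31 (SD, n = 5) on tomatidine and 12.56 ± 0.27 (SD, n = 6) on ursolic acid. Ursolic acid minus control was 0.58 on the log2 scale, or 1.50-fold, with a standard error of 0.21 and a 95% interval from 0.13 to 1.03.

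The second Atp2a2 probe (ILMN_1239742) read the same order of diets. Control mice read 9.54, 10.51, 10.79, 10.39 and 9.63, ursolic acid mice ran from 10.62 to 11.25 with a median of 10.72, and tomatidine mice read 10.44, 10.73, 10.67, 9.84 and 10.66. Here 2 of the 6 ursolic acid mice and none of the tomatidine mice exceeded the highest control mouse. The difference of ursolic acid from control was 0.66, or 1.58-fold, with a standard error of 0.23 and an interval from 0.17 to 1.14. The deviations of the 2 probes from their diet means correlated at r = 0.95 over the 16 mice. The sources used here do not say which splice form of Atp2a2 each probe reads.

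For ursolic acid against control, these were the 2 of 9 member probes that passed in limma at an unadjusted p of 0.025, the threshold of the study, and both were higher. With the methods' t-test itself 0 of 9 passed, and with its form for unequal variances 0 of 9. Over all probes 2.58% passed as higher and 2.72% as lower, and nothing is read from the members' count because this comparison chose them. After Benjamini-Hochberg adjustment over all probes at 0.1, none of the 9 member probes was called, against 0.00778% of all probes. The Atp2a2 differences rested on few mice. Without control mouse 1 the difference at the brighter probe was 0.42, without control mouse 5 it was 0.47 and without ursolic acid mouse 5 it was 0.52, and without any 1 of these 3 neither probe passed 0.025. At the brighter probe alone, leaving out ursolic acid mouse 1 (0.52) or mouse 2 (0.56) also ended the pass. Without control mice 1 and 5 and tomatidine mouse 4, a set chosen after the data were seen, the differences were 0.22 and 0.27, and neither passed.

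For tomatidine against control, Atp2a2 differed by 0.25 (95% interval -0.22 to 0.72, adjusted p = 0.805 by limma) at the brighter probe and by 0.29 (-0.21 to 0.80, adjusted p = 0.778) at the other. Ursolic acid minus tomatidine was 0.33 (-0.12 to 0.79) and 0.36 (-0.12 to 0.85), with an adjusted p of 0.883 at both. These values also rested on single mice. At the brighter probe tomatidine minus control was 0.091 without control mouse 1, 0.14 without control mouse 5, 0.39 without control mouse 3 and 0.38 without tomatidine mouse 4, and ursolic acid minus tomatidine was 0.20 without tomatidine mouse 4. At the other probe tomatidine minus control was 0.14, 0.16, 0.45 and 0.45 without the same mice, and ursolic acid minus tomatidine was 0.21 without tomatidine mouse 4. Without control mice 1 and 5 and tomatidine mouse 4, tomatidine minus control was 0.020 and 0.058. With all mice the order of means was control, tomatidine, ursolic acid at both probes, with neither neighbouring pair separated beyond the spread between mice. The tests share the control or the ursolic acid mice with the comparison that chose the genes. The genes were also chosen with the differences between diets known, so the p values of these comparisons, here and for the other members, are no independent test.

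Atp2a1, the pump of fast-twitch fibres, differed between diets by less than the spread between mice. Control mice read 14.95, 14.97, 14.91, 14.83 and 14.69, tomatidine mice read 14.77, 14.88, 14.80, 14.93 and 14.88, and ursolic acid mice ran from 14.76 to 14.95 with a median of 14.86. The 3 ranges coincided apart from the low control mouse 5. Ursolic acid minus control was -0.0028 (-0.11 to 0.10), tomatidine minus control was -0.017 (-0.12 to 0.090, adjusted p = 0.965) and ursolic acid minus tomatidine was 0.014 (-0.089 to 0.12, adjusted p = 0.987). The probe lay near the top of the array, where maxima were 15.2 to 15.4, and whether its signal was compressed there was not tested.

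**Figure D1:**
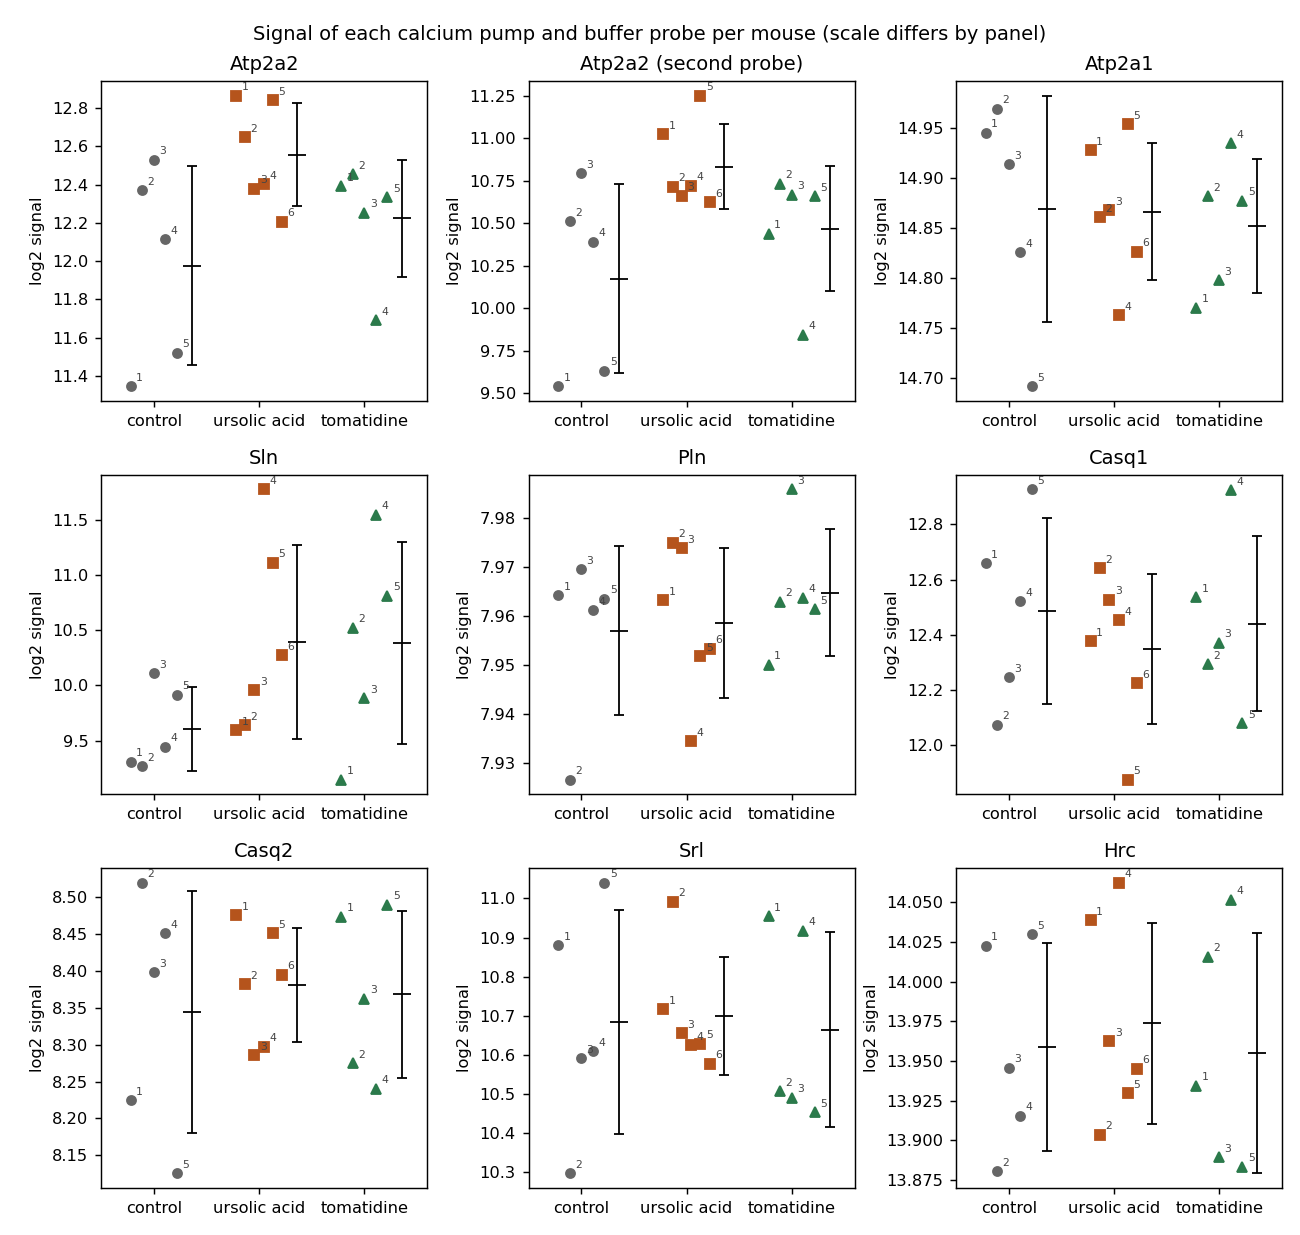
Log2 signal (y axis, with a scale of its own in each panel) of the 9 probes of the 8 genes in each of the 16 mice, by diet (x axis); each symbol is 1 mouse with its number, and the bar beside a diet is its mean ± SD. Atp2a2 is lowest in control mice 1 and 5 and tomatidine mouse 4, Sln spreads widest on ursolic acid and tomatidine, and Pln stays between 7.93 and 7.99.

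Of the pump regulators, Sln varied most between mice. Control mice read 9.31, 9.27, 10.11, 9.44 and 9.91, tomatidine mice read 9.14, 10.52, 9.88, 11.54 and 10.81, and ursolic acid mice ran from 9.59 to 11.78 with a median of 10.12. On either compound 3 mice lay above the highest control mouse. The other ursolic acid mice lay among the controls, as did tomatidine mouse 3, while tomatidine mouse 1 lay below the lowest control mouse. The means were 9.61 ± 0.38 (SD, n = 5) on control diet, 10.38 ± 0.91 (SD, n = 5) on tomatidine and 10.39 ± 0.88 (SD, n = 6) on ursolic acid. Ursolic acid minus control was 0.78, or 1.72-fold, the second largest difference of all 25697 probes in size, with an interval from -0.15 to 1.72. Tomatidine minus control was 0.77, or 1.71-fold (-0.20 to 1.75, adjusted p = 0.659). Single mice carried much of both values, with 0.51 for ursolic acid without ursolic acid mouse 4 and 0.48 for tomatidine without tomatidine mouse 4. Neither difference passed 0.025, and the spread of Sln among mice on the same compound was larger than the difference. Ursolic acid minus tomatidine was 0.011, with an interval from -0.92 to 0.94 and an adjusted p of 0.998, an interval that leaves room for a difference in either direction larger than either compound's difference from control.

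Pln gave no signal that could be told from the array's floor. Its values ran from 7.93 to 7.97 on control diet, from 7.93 to 7.97 on ursolic acid and from 7.95 to 7.99 on tomatidine. Its differences were 0.0016 (-0.020 to 0.023) for ursolic acid minus control, 0.0078 (-0.015 to 0.031, adjusted p = 0.895) for tomatidine minus control and -0.0062 (-0.028 to 0.016, adjusted p = 0.967) for ursolic acid minus tomatidine. At this level a change in Pln was not detectable.

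Among the luminal buffers, Casq1 read 12.66, 12.07, 12.25, 12.52 and 12.93 in control mice and 12.54, 12.29, 12.37, 12.92 and 12.08 in tomatidine mice, and ran from 11.87 to 12.64 with a median of 12.41 in ursolic acid mice. Its highest values fell in control mouse 5 and tomatidine mouse 4, which were among the lowest for Atp2a2. Ursolic acid minus control was -0.14 (-0.51 to 0.23), tomatidine minus control was -0.045 (-0.43 to 0.34, adjusted p = 0.975) and ursolic acid minus tomatidine was -0.091 (-0.46 to 0.28, adjusted p = 0.971). The 3 ranges overlapped throughout.

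Casq2 was dim, with an overall mean of 8.37. Control mice read 8.22, 8.52, 8.40, 8.45 and 8.13, tomatidine mice read 8.47, 8.27, 8.36, 8.24 and 8.49, and ursolic acid mice ran from 8.29 to 8.48 with a median of 8.39. No mouse on either compound exceeded the highest control mouse. Its differences were 0.037 (-0.11 to 0.18) for ursolic acid minus control, 0.024 (-0.13 to 0.18, adjusted p = 0.964) for tomatidine minus control and 0.013 (-0.13 to 0.16, adjusted p = 0.991) for ursolic acid minus tomatidine. So close to the floor, log2 differences may be compressed.

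Srl read 10.88, 10.30, 10.59, 10.61 and 11.04 in control mice and 10.95, 10.51, 10.49, 10.92 and 10.45 in tomatidine mice, and ran from 10.58 to 10.99 with a median of 10.64 in ursolic acid mice. Its lowest and its highest value were both in control mice. The differences were 0.016 (-0.26 to 0.29) for ursolic acid minus control, -0.019 (-0.31 to 0.27, adjusted p = 0.989) for tomatidine minus control and 0.035 (-0.24 to 0.31, adjusted p = 0.988) for ursolic acid minus tomatidine.

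Hrc varied least of the bright buffers, with 14.02, 13.88, 13.95, 13.92 and 14.03 in control mice, 13.93, 14.02, 13.89, 14.05 and 13.88 in tomatidine mice, and 13.90 to 14.06 with a median of 13.95 in ursolic acid mice. Its differences were 0.015 (-0.068 to 0.098), -0.0040 (-0.091 to 0.083, adjusted p = 0.992) and 0.019 (-0.064 to 0.10, adjusted p = 0.973) in the same order of comparisons. The intervals for Hrc leave a difference from control of less than 0.1 on the log2 scale on either compound.

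Over all 9 probes, none passed 0.025 for tomatidine against control, where 2.25% of all probes passed as higher and 3.12% as lower, and none did for ursolic acid against tomatidine, where 2.94% passed in either direction. None was called at an adjusted p of 0.1 in these comparisons, against 0.0973% and 0.0117% of all probes. The median difference of the 9 probes was 0.016, 0.0078 and 0.014 for ursolic acid minus control, tomatidine minus control and ursolic acid minus tomatidine, against medians over all probes of -4.2e-05, -0.00059 and 0.00087.

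**Figure D2:**
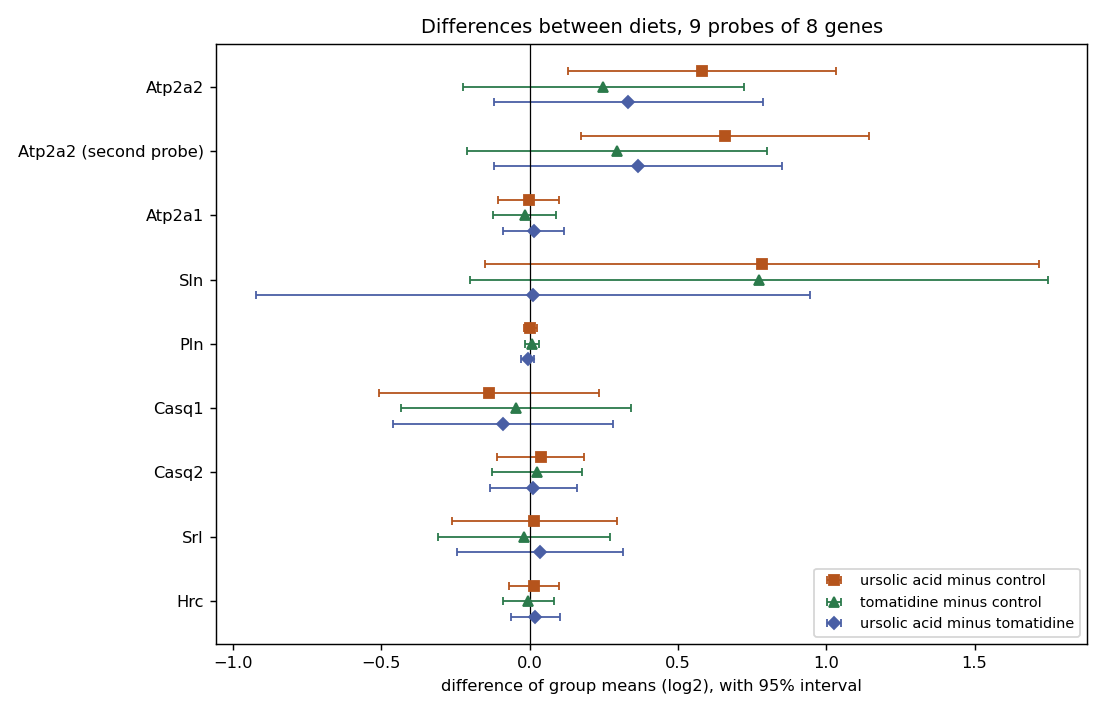
Difference of diet means on the log2 scale (x axis) for each of the 9 probes (y axis), with 95% intervals from limma; squares are ursolic acid minus control, triangles tomatidine minus control and diamonds ursolic acid minus tomatidine. Only the 2 Atp2a2 probes have an interval above 0, for ursolic acid minus control, and Sln has the widest intervals.

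The spread of mice around their own diet mean was not used to choose the genes, and it was tested for 28 pairs of the 8 genes and for each gene against the mean of slow-fibre and of fast-fibre genes, 44 correlations in all, by a 2-sided permutation test within diets over 16 mice with Benjamini-Hochberg adjustment over the 44. Of the 28 pairs 1 was called at 0.05. Casq1 and Srl, both luminal buffers, deviated together, with r = 0.82 (adjusted p = 0.0128) and rho = 0.79 (adjusted p = 0.0202). Within the diets r was 0.96 in control, 0.58 in ursolic acid and 0.83 in tomatidine mice. Leaving out the 2 mice farthest from the median of Casq1, tomatidine mouse 4 and ursolic acid mouse 5, gave r = 0.88 (adjusted p = 0.0431). Without control mice 1 and 5 and tomatidine mouse 4, r was 0.66 (adjusted p = 0.257) and the pair was not called.

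The other 27 pairs were not called, with r from -0.70 to 0.75. Casq2 deviated with Atp2a2 at r = 0.75 (adjusted p = 0.0579), and against Casq1 at r = -0.70 (adjusted p = 0.0579) and against Hrc at r = -0.70 (adjusted p = 0.0579). Casq1 against Atp2a2 gave r = -0.68 (adjusted p = 0.0674). In control mice, r was 0.85 for Atp2a2 with Casq2 and -0.86 for Atp2a2 with Casq1. In ursolic acid mice these values were 0.71 and -0.29, and in tomatidine mice 0.56 and -0.82. Pln, at the floor, correlated with the others at r from -0.33 to 0.34.

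**Figure D3:**
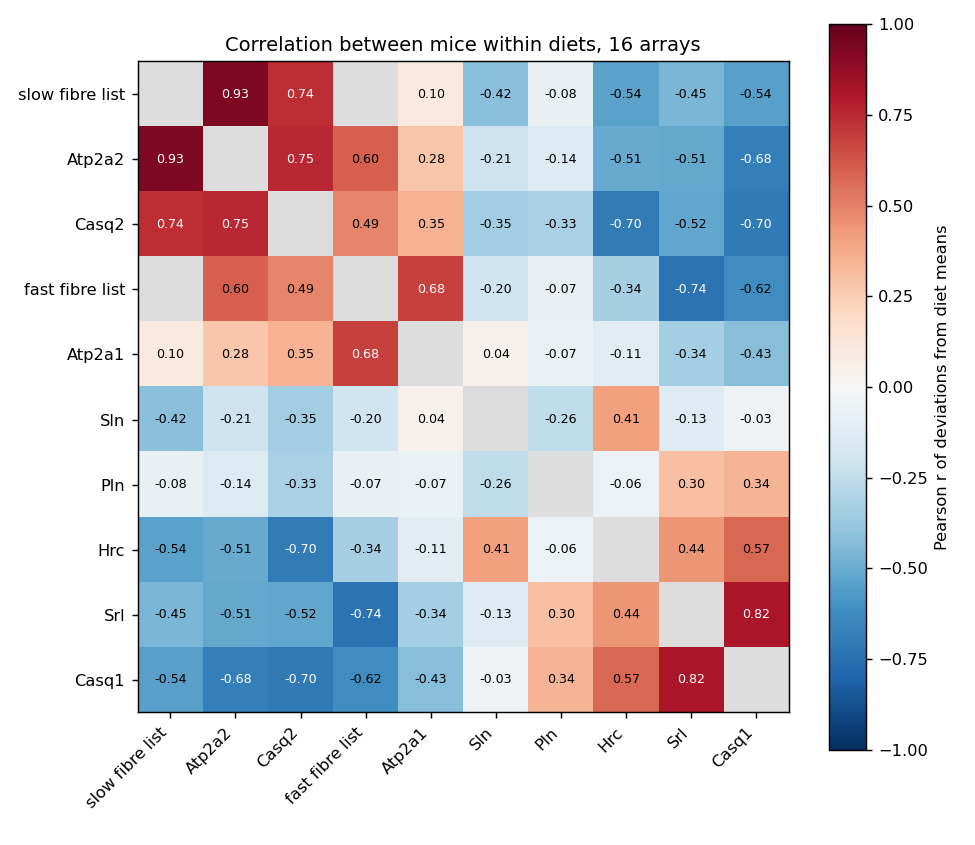
Pearson r between mice (colour scale from -1 to 1, with the value in each cell) of deviations from the diet mean, for the 8 genes and the means of slow-fibre and fast-fibre genes over 16 arrays; grey cells were not computed. The order of rows was set by hand. Values are positive among the slow-fibre mean, Atp2a2 and Casq2 (0.93, 0.74 and 0.75) and among Casq1, Srl and Hrc (0.82, 0.57 and 0.44). Of these only 0.93 (slow-fibre mean with Atp2a2) and 0.82 (Casq1 with Srl) were called. The fast-fibre mean is also positive with Atp2a1 (0.68), Atp2a2 (0.60) and Casq2 (0.49), none of them called.

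The deviations of Atp2a2 were also set against those of the slow-fibre mean. Over all 16 mice r was 0.93 (adjusted p = 0.00484) and rho was 0.92 (adjusted p = 0.00396). Because 3 mice stood apart in the slow-fibre mean, the relation was also taken over the other 13, where r was 0.71 (adjusted p = 0.257). The call was thus lost without control mice 1 and 5 and tomatidine mouse 4, a set with fewer mice and a narrower range. Within the diets r was 0.99 in control, 0.80 in ursolic acid and 0.91 in tomatidine mice. With single mice left out r ranged from 0.90 to 0.96, and the pair stayed called. Leaving out only the 2 mice farthest from the median, control mouse 1 and tomatidine mouse 4, gave r = 0.87 (adjusted p = 0.0541). Casq2 had r = 0.74 with the slow-fibre mean (adjusted p = 0.0674). With the fast-fibre mean r was -0.74 for Srl (adjusted p = 0.0579), 0.68 for Atp2a1 (adjusted p = 0.0903) and -0.62 for Casq1 (adjusted p = 0.0921). Atp2a2 also had a positive r with the fast-fibre mean, 0.60 (adjusted p = 0.187), as did Casq2, 0.49 (adjusted p = 0.297). Against the slow-fibre mean r was -0.54 for Casq1 (adjusted p = 0.188) and -0.54 for Hrc (adjusted p = 0.187). For Srl it was -0.45 (adjusted p = 0.304). None of these values was called.

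With all mice, the slow-fibre mean had the same order of diets as Atp2a2. It was 10.11 in control mice (9.43 to 10.59), 10.24 in tomatidine mice (9.64 to 10.54) and 10.48 in ursolic acid mice (10.28 to 10.81). Without control mice 1 and 5 and tomatidine mouse 4 the means were 10.49, 10.39 and 10.48, so that the order was lost. None of its 9 measured genes passed 0.025 for ursolic acid against control, and 1 passed as higher on tomatidine. Of these 9 genes 6 had a mean over 8.5, while Myh7, the slow myosin heavy chain, was at 8.35 and Tnni1, slow troponin I, at 8.15. The fast-fibre mean was 14.31, 14.27 and 14.24 in the same order of diets, and 4 of its 11 measured genes passed as lower on ursolic acid and 1 on tomatidine. Over all probes 2.58% passed as higher and 2.72% as lower on ursolic acid, and 2.25% and 3.12% on tomatidine. All 11 fast-fibre genes had a mean over 8.5, unlike most probes, and the share among equally bright probes was not computed. Without control mice 1 and 5 and tomatidine mouse 4 the fast-fibre means were 14.35, 14.275 and 14.24, so that their order was kept. After adjustment for the slow-fibre mean, the difference of Atp2a2 on ursolic acid was 0.24 with a standard error of 0.087 at the brighter probe, which still passed 0.025, and 0.32 with a standard error of 0.13 at the other, which did not. The same adjustment raised the difference of Sln from 0.78 to 1.10 with a standard error of 0.45, which did not pass 0.025. These differences are again those of the comparison that chose the genes. Among other cell types, 2 of 11 measured adipocyte genes and 2 of 8 endothelial genes passed as higher on ursolic acid, with list means of 8.71 and 9.16 on control diet and 8.75 and 9.28 on ursolic acid. On tomatidine 4 of the 11 adipocyte genes passed as higher, with a list mean of 8.87, and none of the endothelial genes passed. These counts stand against 2.58% of all probes as higher on ursolic acid and 2.25% on tomatidine. Of the adipocyte genes 6 of 11 and of the endothelial genes 6 of 8 had a mean over 8.5, so these lists too were brighter than the array. The part of these cell types in the results was not tested.

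**Figure D4:**
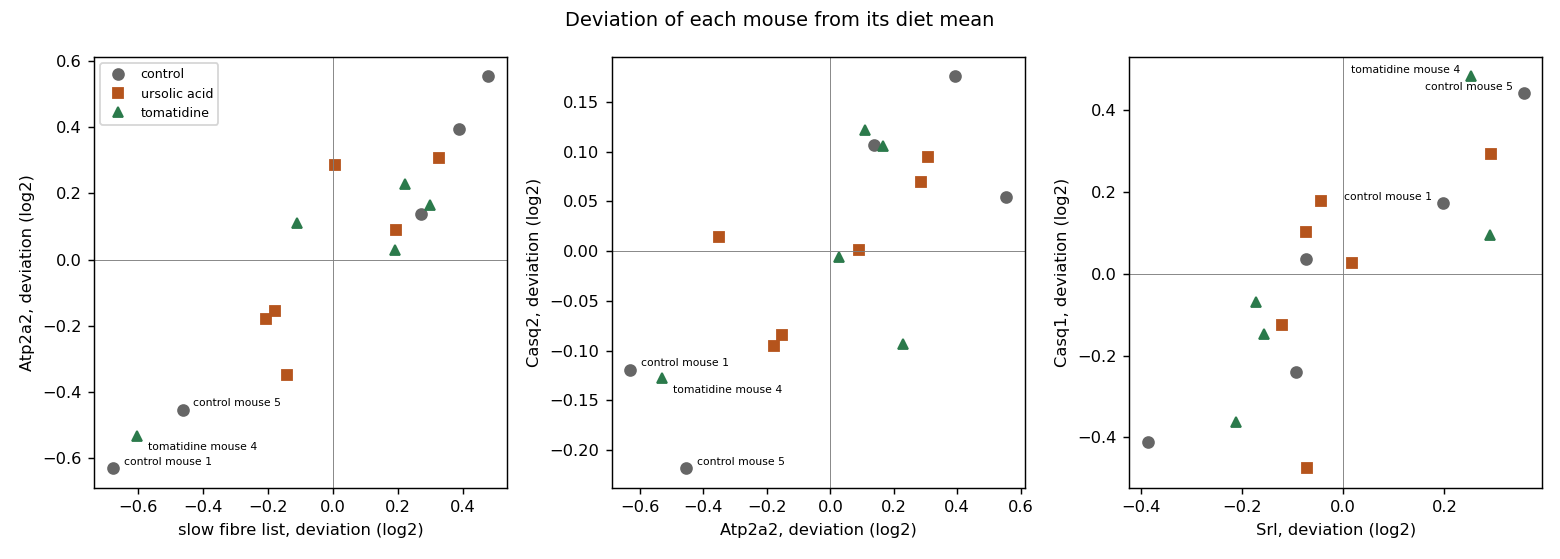
Deviation of each mouse from its diet mean on the log2 scale, for Atp2a2 against the slow-fibre mean, Casq2 against Atp2a2, and Casq1 against Srl (each symbol is 1 of 16 mice, by diet). Control mice 1 and 5 and tomatidine mouse 4, named in the panels, lie at the low end for the slow-fibre mean, Atp2a2 and Casq2 and towards the high end for Casq1 and Srl.

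The genes most like each member between mice are given as a description, by r of within-diet deviations over 16 mice among 5942 probes with a mean of 8.5 or more. For Atp2a2 the 10 most alike were Tnnt1 (r = 0.93), Tnnc1 (0.91), Myl3 (0.89), Lims2 (0.89), Mrpl55 (0.89), Mb (0.88), Myoz2 (0.88), Myl2 (0.88), Esrrb (0.88) and Ctcf (0.87). Of these, Tnnt1 and Tnnc1 encode the slow forms of troponin T and troponin C, Myl2 and Myl3 slow and cardiac myosin light chains, and Mb the oxygen store myoglobin. The Mb probe ranked here had a mean of 13.55, and the brightest Mb probe, at 14.05, was not among the 10. Tnnt1, Tnnc1, Myl3, Myl2 and Myoz2 are members of the slow-fibre list. Their ursolic acid minus control differences were 0.69, 0.72, 0.69, 0.63 and 0.40, on the log2 scale. For Lims2, Mrpl55, Mb, Esrrb and Ctcf the differences were 0.19, 0.0062, 0.25, 0.34 and -0.12. In the rest of the slow-fibre list, Myh7, Tpm3, Tnni1 and Myl6b differed by 0.20, 0.047, -0.0017 and -0.0053. No measured gene of that list passed 0.025 in this comparison.

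For Atp2a1 the 10 most alike held none of the fast-fibre list. They were Slc25a38 (r = 0.86), Trim72 (0.86), Mocs2 (0.84), Tnfaip1 (0.84), Mars1 (0.82), Pole3 (0.81), an unnamed probe (0.81), Mrps10 (0.79), Gcdh (0.79) and Parp2 (0.79). Trim72 encodes MG53, which acts in repair of the muscle membrane.

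For Sln the 3 most alike were Hspa2 (r = 0.91), a heat shock protein of the Hsp70 family, Aif1l (0.90) and Rrad (0.90), a small GTPase that restrains calcium channels. Chrna1 (0.85) and Chrnb1 (0.81), subunits of the muscle acetylcholine receptor, ranked sixth and ninth and are named after their values were seen. Casq1 was most like Ank1 (0.92), whose muscle form anchors the sarcoplasmic reticulum to the myofibril, Myo10 (0.92) and Timp2 (0.91). Srl was most like Dguok (0.91), Jph1 (0.88), a junctophilin that holds the sarcoplasmic reticulum to the transverse tubule, and Ptp4a2 (0.88). Casq2 was most like the mitochondrial carrier gene Slc25a34 (0.91), Lgals4 (0.90) and Hint2 (0.89). Hrc was most like Mllt11 (0.81), Gpc1 (0.81) and Sf1 (0.80), and Pln, at the floor, like Tox4 (0.76), Ogt (0.76) and Tmem161a (0.75). With so many probes ranked over 16 mice, high values of r are found for any probe, and no test was made.

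The other genes of muscle calcium handling were taken as a list of 53 genes covering release channels, voltage sensors, junctional proteins, store-operated entry, cytosolic buffers and calcium-dependent enzymes, of which Pvalb is in the fast-fibre list too. Of these 47 were measured and 36 had a mean over 8.5. For ursolic acid against control 2 of 47 rose and 6 fell at an unadjusted p of 0.025, with a median difference of -0.015. For tomatidine 0 rose and 7 fell, with a median of -0.011, and for ursolic acid against tomatidine none passed. None was called at an adjusted p of 0.1 in any comparison. The 2 counts of falls, 12.8% and 14.9% of the list, stand against 2.72% and 3.12% of all probes. These sets are unlike, because most genes of the list had a mean over 8.5 while 76.8% of all probes had a mean under it. The share among equally bright probes was not computed. The comparisons share their control mice, and 4 genes (Cacng1, Calm3, Camk2g and Slc8a1, of which Calm3 is named after its values were seen) fell in both, which is 50% of the genes passing with ursolic acid and 57.1% of those passing with tomatidine.

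The genes that rose on ursolic acid were S100a1, a calcium-binding protein that enhances release and uptake in muscle, and Camk2d, a calcium-dependent kinase. S100a1 read 12.37, 12.17, 12.33, 12.25 and 12.53 in control mice and 12.42 to 12.62 with a median of 12.51 in ursolic acid mice, so that control mouse 5 lay within the ursolic acid range and the other control mice below it. Its difference was 0.20 (standard error 0.056, adjusted p = 0.300 by limma). Camk2d differed by 0.14 (standard error 0.044, adjusted p = 0.335) at a mean of 8.58, close to the dim level.

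The genes that fell on both compounds included Cacng1, the gamma subunit of the skeletal calcium channel that senses voltage. It read 11.47, 11.53, 11.29, 11.67 and 11.40 in control mice, 11.21, 11.21, 10.81, 11.18 and 11.25 in tomatidine mice, and 10.97 to 11.40 with a median of 11.24 in ursolic acid mice. All tomatidine mice lay below all control mice, while the ursolic acid mice overlapped with the controls. Cacng1 fell by 0.34 on tomatidine (standard error 0.099, adjusted p = 0.286) and by 0.27 on ursolic acid (standard error 0.095, adjusted p = 0.400). The pass on ursolic acid was lost without control mouse 2 or 4 or without ursolic acid mouse 5 or 6, and the difference on ursolic acid ranged from -0.31 to -0.22 when mice were left out singly.

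Slc8a1, the sodium-calcium exchanger of the cell membrane, fell by 0.17 on ursolic acid (standard error 0.049, adjusted p = 0.302) and by 0.19 on tomatidine (standard error 0.052, adjusted p = 0.256). Its control mice read 9.29, 9.25, 9.36, 9.31 and 9.43, its tomatidine mice 9.29, 9.15, 9.11, 9.06 and 9.09, and its ursolic acid mice 9.04 to 9.29 with a median of 9.13, so both ranges overlapped with the lowest control mice. Camk2g, another kinase of the Camk2d family, fell by 0.14 on ursolic acid (standard error 0.046, adjusted p = 0.367) and by 0.17 on tomatidine (standard error 0.048, adjusted p = 0.266). The fall on ursolic acid did not pass without control mouse 5. Cacnb1, the beta subunit of the same channel as Cacng1, fell by 0.17 on ursolic acid (standard error 0.057, adjusted p = 0.360). Stac3, an adaptor that the voltage sensor needs for coupling to release, fell by 0.20 on tomatidine (standard error 0.057, adjusted p = 0.271). Ursolic acid minus tomatidine was -0.069 for Cacnb1 (95% interval -0.19 to 0.054) and 0.095 for Stac3 (-0.021 to 0.21). Neither passed 0.025, and with intervals this wide it stays undecided whether the compounds differ in these genes.

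The list's counts depended on the mice that stood apart. Without control mice 1 and 5 and tomatidine mouse 4, 5 rose and 3 fell on ursolic acid and 2 rose and 2 fell on tomatidine. Among the named genes, Camk2g on both compounds, Slc8a1 on tomatidine and Cacng1 on ursolic acid then no longer passed. Without control mouse 5 alone, 5 rose and 3 fell on ursolic acid and 2 rose on tomatidine. Without control mouse 4 or ursolic acid mouse 5 alone 3 fell on ursolic acid, and without tomatidine mouse 5 alone 1 rose on tomatidine. The slow-fibre values of these mice are given above, and their part in these counts was not tested.

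**Figure D5:**
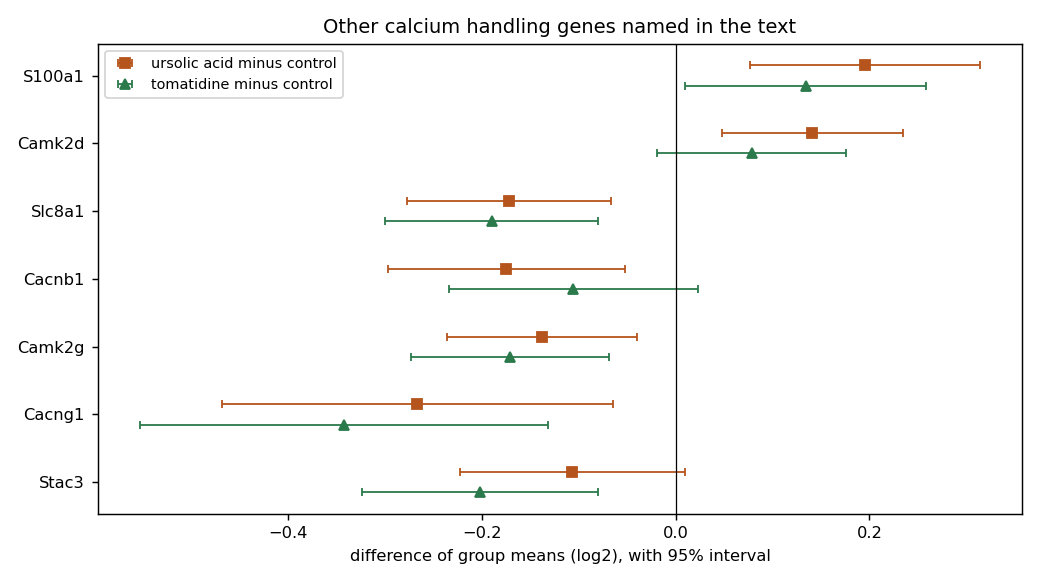
Difference of diet means on the log2 scale (x axis) with 95% intervals from limma for the 7 named genes of the wider calcium list (y axis); squares are ursolic acid minus control and triangles tomatidine minus control. S100a1 and Camk2d lie above 0 and Slc8a1, Cacnb1, Camk2g, Cacng1 and Stac3 below 0 for both compounds, with some intervals crossing 0.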

How the data were processed

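Each mouse's quadriceps RNA was extracted with TRIzol, purified on RNeasy columns, hybridised to an Illumina Mouse Ref-8 v2.0 BeadChip and read with an iScan scanner. The authors deposited log2 values extracted with BeadStudio and already normalized; the software version, background correction and normalization are not given in the sources used. The deposited log2 values were used unchanged. No column was left unmatched to a mouse. Probe names came from the platform's annotation (23978 with 1 symbol, 1719 with none). Probes of a gene were kept apart, and the brightest stood for its gene in the 44 correlations and in the lists of genes. In the ranking of probes most like a member, each probe was taken by itself.

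In R 4.3.3, limma 3.58.1 was run on all probes (lmFit, then eBayes; 1 mean per diet; 13 residual degrees of freedom), with Benjamini-Hochberg adjustment over all 25697 probes. Thresholds were an unadjusted p of 0.025, as in the study's methods, and an adjusted p of 0.1. Correlations used 100000 permutations within diets. The fit and the correlation test were tested on simulated data. The 2 compounds share 5 control mice. The number of arrays limits the precision. The p values of limma set a difference against the spread between mice, and those of the permutation test concern whether deviations go together. The members, lists, tests and alternatives were chosen with earlier results of these data known. The genes named were all member probes, the up to 4 genes of smallest p in each direction and comparison from the wider calcium list, and the 10 (Atp2a2, Atp2a1) or 3 (other members) probes most alike in within-diet deviations. Alternatives changed the scaling, the filter on dim probes, the test, the mice included, a replicate block and a slow-fibre covariate.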

Additional observations from a re-analysis of the deposited data

Results flagged for a closer look

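Of 27 sets of values (9 probes in 3 diets), 3 held a mouse whose gap to its nearest neighbour was large against the whole range of its diet, where chance gives about 1 in 20. At the brighter Atp2a2 probe, tomatidine mouse 4 read 11.69, below the other tomatidine mice at 12.25 to 12.45, and its slow-fibre mean of 9.64 was the lowest on tomatidine. Srl read 10.99 in ursolic acid mouse 2, above the other mice on that diet. Pln read 7.93 in control mouse 2, below the other control mice, at a level where all mice were near the array's floor.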

How the results depend on the processing

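Of the 27 differences of member probes between diets, 14 kept their direction and their side of 0.025 under every alternative other than leaving out 1 mouse. The count of member probes passing for ursolic acid against control, 2, became 0 with the methods' t-test, 0 with its form for unequal variances, 1 after adjustment for the slow-fibre mean and 0 without control mice 1 and 5 and tomatidine mouse 4, and ranged from 0 to 2 when mice were left out singly. It stayed 2 with a replicate block, which changed no other member call but ended the pass of Camk2g on ursolic acid. The mouse numbers do not pair the mice: same-numbered mice correlated at r from -0.24 to 0.32, 2 of 16 correlated best with their own number, and the labels name no shared litter or day. The count of called member pairs, 1, was 5 with diet means left in, 2 with probes of a gene averaged and 0 without the same 3 mice, and ranged from 1 to 3 with single mice left out. Signs turned in member differences that passed no threshold. For ursolic acid minus control, Casq1 was 0.026 and Casq2 -0.049 after the slow-fibre adjustment, 0.069 and -0.075 without the same 3 mice, and Atp2a1 was 0.0053 with the replicate block. With single mice left out it ranged from -0.047 to 0.022 for Atp2a1, -0.0060 to 0.0064 for Pln, -0.017 to 0.081 for Casq2, -0.081 to 0.10 for Srl and -0.0048 to 0.032 for Hrc. After the adjustment, tomatidine minus control was 0.013 for Casq1, -0.0065 for Casq2, 0.017 for Srl and 0.0087 for Hrc, and ursolic acid minus tomatidine was 0.013 for Casq1 and -0.043 for Casq2. Without control mice 1 and 5 and tomatidine mouse 4, tomatidine minus control was 0.039 for Casq1, -0.056 for Casq2, 0.10 for Srl and 0.017 for Hrc, and ursolic acid minus tomatidine was 0.030 for Casq1 and -0.019 for Casq2. Without tomatidine mice 3 and 4, ursolic acid minus tomatidine was 0.00051 for Pln, 0.047 for Casq1 and -0.032 for Casq2. With quantile normalization repeated, tomatidine minus control was 0.013 for Hrc and ursolic acid minus tomatidine -0.0057 for Atp2a1. With single mice left out, tomatidine minus control ranged from -0.061 to 0.0082 for Atp2a1, -0.17 to 0.066 for Casq1, -0.030 to 0.068 for Casq2, -0.12 to 0.070 for Srl and -0.028 to 0.014 for Hrc, and ursolic acid minus tomatidine from -0.0064 to 0.035 for Atp2a1, -0.30 to 0.30 for Sln, -0.18 to 0.030 for Casq1, -0.019 to 0.043 for Casq2 and -0.024 to 0.11 for Srl. Apart from the settings that left out mice, the cause of these changes was not tested. The t-tests gave other counts for the wider calcium list too, with 4 falls on tomatidine under either form and 0 rises on ursolic acid under unequal variances, where S100a1 and Camk2d did not pass. The count of that list's rises on tomatidine, 0, also changed with quantile normalization repeated and with the slow-fibre adjustment, and was at most 2 under any setting. For dim genes, Pln and Casq2 among them, the array's floor limits what can be seen.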
